A study of Mus musculus with 18 samples.

Results

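The genes described here encode the receptors for GABA, glycine and glutamate. They were chosen by symbol: every gene of the deposited table whose name is that of a GABA-A, GABA-B, glycine, AMPA, delta, kainate, NMDA or metabotropic glutamate (mGlu) receptor subunit, 51 of 36737 genes in 14 subfamilies. A gene was marked as expressed when its mean FPKM (fragments per gene, scaled by transcript length and by the mapped fragments of the library) over all libraries was at least 0.1, which left 38 expressed genes and 13 under that level. The genes just inside this level were Gabrr2 at 0.1, and Gabrg3 and Grm5 at 0.107 FPKM, and those just outside were Grm2 at 0.0561 and Gabrq at 0.055 FPKM.

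Bulk poly(A) RNA-seq was carried out on dorsal root ganglia (DRG) of spinal levels L3–L5 from adult CD1 mice, an outbred stock. Sham mice had sham surgery, Fracture mice had a tibial fracture with a pin in the bone and received vehicle, and Fracture+PDX mice had the same fracture and received protectin DX (PDX), a lipid mediator made from an omega-3 fatty acid that promotes the resolution of inflammation. There were 6 mice in a group, 3 of either sex, and each mouse gave a library of its own, 18 in all. The ganglia of the fracture mice were taken on day 3, and the labels name no transgene or deletion in any group. The day for Sham and the PDX dose of these mice are not given in the sources used here. Fracture against Sham asks what the injury did, and Fracture+PDX against Fracture what the treatment did.

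Sensory neurons of the DRG send an axon to the skin, muscle and bone and another into the spinal dorsal horn, and receptors made in the ganglion are carried to both ends. GABA-A and glycine receptors are pentameric chloride channels; because sensory neurons hold a high chloride level, GABA depolarizes them and dampens transmitter release at their central terminals, where GABA-B receptors act through inhibitory G proteins. Ionotropic glutamate receptors (AMPA, kainate and NMDA) are tetrameric cation channels that act on the same terminals, and mGlu receptors are G protein–coupled receptors that tune release.

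Library totals ran from 63235040 to 82824942 counts, and the 20 most abundant genes took 7.54% to 8.68% of them. The summed level of 15 DRG neuron markers was 4719 to 5051 FPKM in Sham, 5245 to 5367 in Fracture and 5056 to 5481 in Fracture+PDX, so that the lowest Fracture library lay above the highest Sham library. Of the same markers, 4 of 15 were called higher in Fracture than in Sham, against 1.09% of all genes tested, with a median log2 fold change of 0.12 over the list. Schwann cell markers summed to 3227 to 7551 FPKM in Sham and 3847 to 5955 in Fracture, and macrophage markers to 17.3 to 19.9 and 11.5 to 15.5 FPKM. Endothelial markers had mean sums of 25.5, 21.4 and 20.2 FPKM in Sham, Fracture and Fracture+PDX. In the same order, the means were 3.36, 2.63 and 2.31 for oligodendrocytes and astrocytes, and 243, 256 and 256 for satellite glia. Skeletal muscle markers ran from 4.54 to 380 FPKM over the libraries, and 7 genes of the placenta from 110 to 359 FPKM in Sham and from 16.9 to 167 in Fracture. In the list for oligodendrocytes and astrocytes, cells of the central nervous system, 3 of 7 genes reached 0.1 FPKM, and no marker list had a gene at 0 in every library.

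The plot of the expressed genes by subfamily gives the overall picture. GABA-B receptors held a summed level of 78.0 FPKM over their subunits, kainate receptors 56.9 FPKM, GABA-A receptors 50.8 FPKM over the 19 genes of their 5 subfamilies, and glycine receptors 32.1 FPKM. AMPA receptors summed to 18.6, group III mGlu receptors to 15.1 and NMDA receptors to 14.1 FPKM. The delta, epsilon, pi and theta subunits of the GABA-A receptor reached 0.436 FPKM together, and the rho subunits and group II mGlu receptors held 0.176 and 0.209 FPKM.

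**Figure D1:**
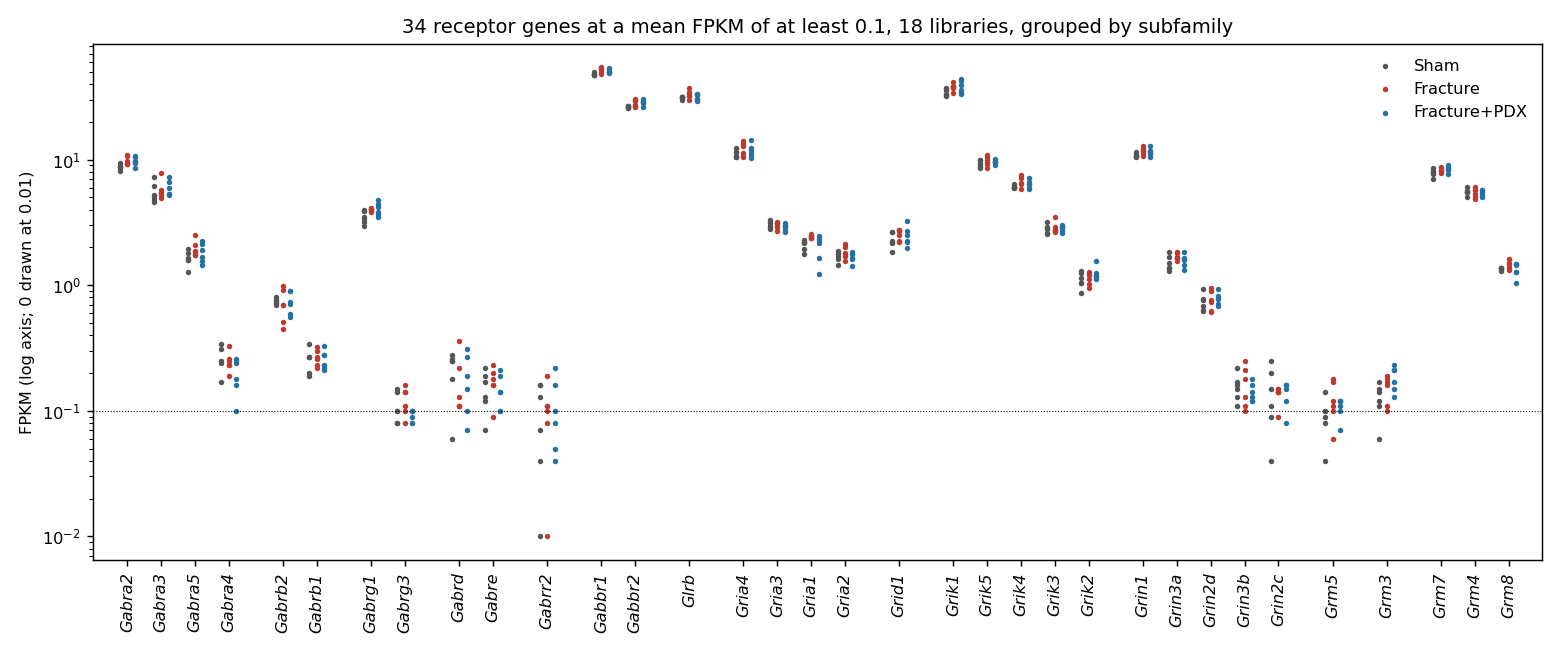
FPKM of 34 of the 38 expressed receptor genes in each of the 18 libraries (vertical log axis, 1 point per library, grey Sham, red Fracture, blue Fracture+PDX, genes grouped by subfamily, dotted line at 0.1 FPKM, a value of 0 drawn at 0.01). Gabbr1, Grik1, Glrb and Gabbr2 stand highest, and within each gene the 3 groups lie close together on this scale.

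Levels of GABA-A receptor subunits differed widely. Among the alpha subunits, which form the GABA binding site together with a beta subunit, Gabra2 had the highest level at a mean of 9.46 FPKM over the 18 libraries. Gabra3 was at 5.76, Gabra5 at 1.81 and Gabra4 at 0.236 FPKM. The beta subunits Gabrb2 and Gabrb1 had means of 0.729 and 0.261 FPKM. Gabrg1, a gamma subunit that is uncommon in most of the adult brain, was at 3.84 FPKM. Extrasynaptic and rarer subunits were near the limit: Gabrd, the delta subunit, ran from 0.06 to 0.36 FPKM, Gabre had a mean of 0.156 FPKM, and Gabrr2, a rho subunit known from the retina, ran from 0 to 0.22 FPKM with 2 libraries at 0 counts.

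The GABA-B receptor works only as a dimer of Gabbr1, which binds GABA, and Gabbr2, which couples to the G protein. Gabbr1 was the most abundant receptor gene of all, with a mean of 50.3 FPKM and a range of 46.9 to 54.3 over the 18 libraries. Gabbr2 had a mean of 27.8 FPKM with a range of 25.7 to 30.3. Gabbr1 made up 64.4% ± 0.996 of the sum (SD, n = 18), at 64.5% in Sham, 64.6% in Fracture and 64.1% in Fracture+PDX.

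The glycine receptor stood out by what accompanied its beta subunit. Glrb, which anchors the receptor to the scaffold protein gephyrin and forms no channel on its own, had a mean of 32.0 FPKM and a range of 29.6 to 36.9. The alpha subunits in the table, which bind glycine and form the channel, were all under 0.1 FPKM: Glra2 had at most 29 counts in a library, Glra3 at most 22 and Glra4 at most 10, and Glra4 was at 0 counts in 14 of 18 libraries. No gene named Glra1, another alpha subunit, was found by symbol. Its level is therefore unknown here, and a lack of alpha subunits in the ganglion cannot be concluded.

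AMPA receptors, which carry fast excitation, were led by Gria4 at 11.7 FPKM, or 62.7% ± 2.78 of the AMPA total. Gria3 held 16.2%, Gria1 11.8% and Gria2 9.34% ± 0.68. Gria2 is the subunit that limits calcium entry through the channel, and its mean level was 1.74 FPKM. Counted per kilobase of the longest coding transcript in place of the deposited FPKM, an alternative chosen after seeing the data, Gria4 held 55.8%, Gria3 23.6%, Gria2 10.8% and Gria1 9.85%, so that Gria4 led on either scale while Gria1 and Gria2 changed places.

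Kainate receptors were led by Grik1, the subunit long associated with the kainate currents of small sensory neurons. Grik1 had a mean of 36.9 FPKM and a range of 32.2 to 44.2, and held 64.8% ± 2.11 of the kainate total. The high-affinity subunits Grik5 and Grik4, which need a partner such as Grik1 to form a working channel, had means of 9.54 and 6.42 FPKM. Grik3 and Grik2 followed at 2.84 and 1.16 FPKM. The delta receptors, synaptic organizers of the same family, included Grid1 at 2.44 FPKM.

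The NMDA receptor needs Grin1, which binds glycine or D-serine, together with subunits that bind glutamate. Grin1 had a mean of 11.4 FPKM and held 81.2% ± 1.15 of the NMDA total. The highest of its partners was Grin3a, a subunit that itself binds glycine, at 1.59 FPKM. Of the glutamate-binding subunits, Grin2d had a mean of 0.761 FPKM and Grin2c 0.138 FPKM, whereas Grin2a had 4 to 82 counts and Grin2b 0 to 24 counts per library, both under 0.1 FPKM.

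Metabotropic receptors were represented mainly by group III, which lower cyclic AMP through inhibitory G proteins. Grm7 had a mean of 8.21 FPKM and held 54.5% ± 1.83 of the group, Grm4 5.48 FPKM and 36.4%, and Grm8 1.38 FPKM and 9.14%. Grm6, a receptor of retinal bipolar cells, was at 0 counts in 15 of 18 libraries. Group II was led by Grm3 at 0.153 FPKM and group I, which signals through phospholipase C, by Grm5 at 0.107 FPKM.

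**Figure D2:**
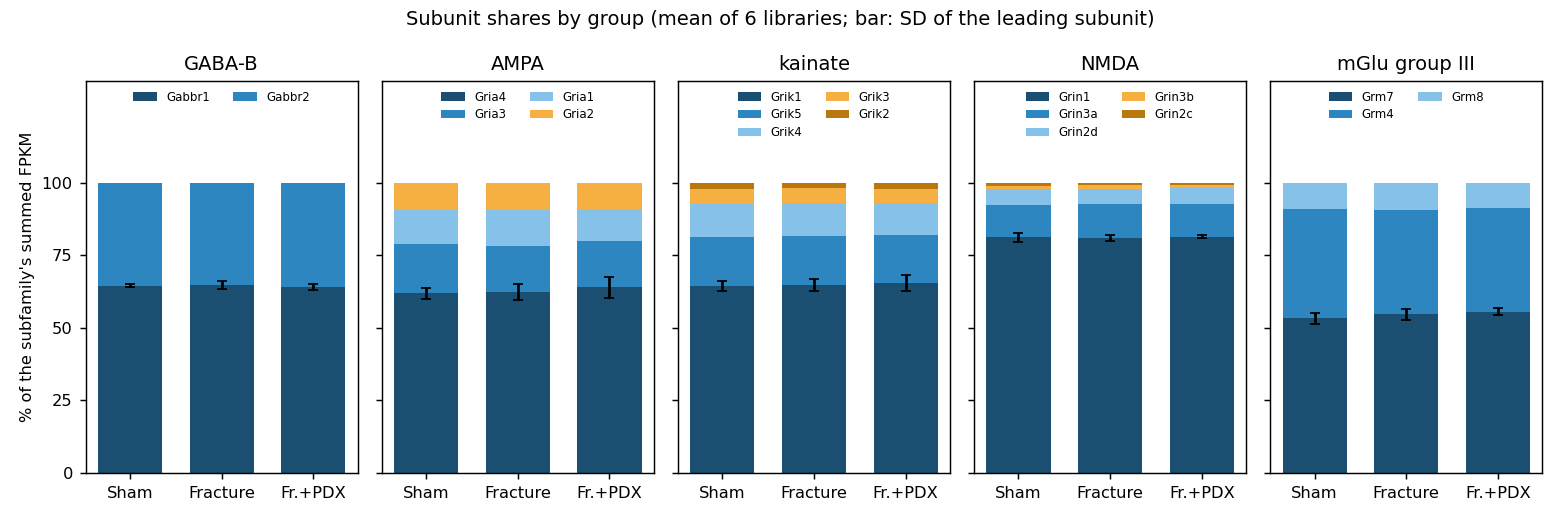
Share of each subunit in the summed FPKM of its subfamily (vertical axis, %) by group for 5 subfamilies, as the mean of 6 libraries, with the SD of the leading subunit as the error bar. The leading subunits are Gabbr1, Gria4, Grik1, Grin1 and Grm7, and each of them leads in all 3 groups.

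Down the order of mean levels, neighbouring genes mostly overlapped over the libraries. The ranges were apart only between Gabbr1 and Grik1, between Gabbr2 and Gria4, and between Grm4 and Gabrg1. Per kilobase of coding transcript the first 4 genes kept their order, and Grin1 moved to rank 5 while Gria4 moved to rank 7. The leading subunit of the 10 subfamilies with more than 1 expressed gene was the same in 10 of 10 on that scale and in 9 of 10 from counts with no length correction, where Gabre with 58.0% passed Gabrd with 42.0%.

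Among the genes under 0.1 FPKM were Gabra6, Gabrp, Gabrq, Gabrr1, Gabrr3, Glra2, Glra3, Glra4, Grin2a, Grin2b, Grm2 and Grm6. Gabra6, the alpha subunit of cerebellar granule cells, was at 0 counts in 16 of 18 libraries and at most at 15 counts. A count of 0 allows up to 3 counts, or 0.0362 to 0.0474 CPM (counts scaled to library size) over the libraries, and covers counting error only, so libraries at 0 do not show that a gene was absent. Gabrq, Grin2a and Grm2 had counts in all 18 libraries, at 8 to 56, 4 to 82 and 8 to 41 counts. In total 40 of the 51 genes had at least 1 count in every library.

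Of the receptor genes, 18 lie in 6 clusters with no more than 1000 kb between neighbours. On chromosome 5 of mm10, Gabrg1 (70751047–70842617, minus strand), Gabra2 (70957597–71095849, minus), Gabra4 (71569749–71658308, minus) and Gabrb1 (71658113–72149037, plus) span 1398 kb, and their mean levels were 3.84, 9.46, 0.236 and 0.261 FPKM. A cluster on the X chromosome holds Gabre, Gabra3 and Gabrq. On chromosome 3, Gria2 and Glrb are neighbours 232 kb across at 1.74 and 32.0 FPKM. The starts of Gabra4 and Gabrb1 overlap on opposite strands, and Gabra5 also lies in such an overlap. The kit keeps the strand, but whether the counting used it is not given in the sources used here, so reads from these overlaps cannot be told apart.

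Promoter sequence was available from RefSeq for 36 of the 51 genes (43 promoters, assembly GRCm38.p6, which has the coordinates of mm10). It is shown for 4 genes whose levels differed between groups or sexes, as the 250 bases before the annotated start, 5′ to 3′ on the gene's strand. Gabbr2 is not shown, since its RefSeq start lies inside the gene as the deposited table has it. Capitals mark the GC box, the letters GGGCGG or their reverse complement, a common element of promoters without a TATA box.
Gabra2, chr5:71095850-71096099, minus strand: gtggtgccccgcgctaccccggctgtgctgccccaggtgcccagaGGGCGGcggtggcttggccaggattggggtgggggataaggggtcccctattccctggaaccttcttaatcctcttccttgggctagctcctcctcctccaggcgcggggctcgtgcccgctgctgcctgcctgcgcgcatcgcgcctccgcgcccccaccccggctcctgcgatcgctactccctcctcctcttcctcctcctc
Gabrg1, chr5:70842618-70842867, minus strand: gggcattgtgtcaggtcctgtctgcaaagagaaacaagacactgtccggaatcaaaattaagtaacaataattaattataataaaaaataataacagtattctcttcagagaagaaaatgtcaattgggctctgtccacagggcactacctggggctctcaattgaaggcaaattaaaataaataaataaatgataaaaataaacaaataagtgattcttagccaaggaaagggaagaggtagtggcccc
Gabbr1, chr17:37045716-37045965, plus strand: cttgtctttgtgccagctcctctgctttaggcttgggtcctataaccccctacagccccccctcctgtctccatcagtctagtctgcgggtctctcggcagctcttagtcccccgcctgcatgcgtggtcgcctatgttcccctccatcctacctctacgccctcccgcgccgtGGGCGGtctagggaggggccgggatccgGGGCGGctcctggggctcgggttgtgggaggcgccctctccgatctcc
Gria4, chr9:4796235-4796484, minus strand: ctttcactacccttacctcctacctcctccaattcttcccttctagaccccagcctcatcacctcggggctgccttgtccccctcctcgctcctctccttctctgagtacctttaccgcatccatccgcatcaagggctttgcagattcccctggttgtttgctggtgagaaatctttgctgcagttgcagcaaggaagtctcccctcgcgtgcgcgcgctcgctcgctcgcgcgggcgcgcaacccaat
The promoters of the neighbours Gabra2 and Gabrg1 differed in base composition. Gabra2 had 70% G and C, 18 CG dinucleotides and 1 GC box, against 35.6%, 1 CG dinucleotide and no GC box for Gabrg1. Gabbr1 had 66% G and C and 2 GC boxes, and Gria4 58.8% and none. On either strand, GGGCGG was present in 21 of the 43 promoters of receptor genes (48.8%), against 32.7% of all 32851 promoters of the same length. TATAAA was found in 5 (11.6%, against 12.4% of all), the cyclic AMP response element TGACGTCA in 0 (against 1.55%), its core TGACG in 3 (6.98%, against 17.8%, and contained in the full element) and the AP-1 element TGANTCA in 2 (4.65%, against 6.75%). These matches describe the letters in the window.

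In Fracture against Sham, levels of 2 receptor genes rose, Gabbr1 and Gabra2, and none fell. In all 20659 genes tested, 1.09% were called higher and 1.83% lower at an adjusted p under 0.05, against 2 and 0 of the 45 receptor genes tested. Gabbr1 lay at 46.9, 47.7 and 49.5 FPKM in Sham (lowest, median and highest of 6) and at 48.4, 52.2 and 54.3 FPKM in Fracture. In 5 of 6 Fracture libraries the level was above the highest Sham library. The log2 fold change was 0.13 with an SE of 0.028, an increase of 9.11% (adjusted p = 0.0328). Gabra2 ran from 8.07 over 8.78 to 9.43 FPKM in Sham and from 9.24 over 9.61 to 10.98 FPKM in Fracture. Here 3 of 6 Fracture libraries were above every Sham library. Its log2 fold change was 0.19 with an SE of 0.042, an increase of 13.8% (adjusted p = 0.0328). Both calls rest on individual libraries: the count of receptor genes called was 0 when Sham male 2, Sham male 3, Sham female 1, Sham female 2, Fracture male 1, Fracture male 3 or Fracture female 2 was left out, and between 1 and 4 without any of the other libraries.

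The next genes did not pass the test. Gabrg1, the chromosome 5 neighbour of Gabra2, lay at 2.94, 3.41 and 3.98 FPKM in Sham and at 3.85, 3.99 and 4.11 in Fracture (log2 fold change 0.22, SE 0.058, adjusted p = 0.0626). For Gria1, an AMPA subunit, the groups did not overlap: 1.78, 2.18 and 2.29 FPKM in Sham against 2.36, 2.42 and 2.57 in Fracture (log2 fold change 0.22, SE 0.063, adjusted p = 0.0767). It was the only 1 of the 45 receptor genes whose Fracture libraries all lay above the Sham libraries, against 0.852% of all genes tested, and none lay wholly below Sham, against 1.46%. Gria4 lay at 10.4, 11.1 and 12.3 FPKM in Sham and at 10.6, 12.1 and 14.0 in Fracture (log2 fold change 0.13, adjusted p = 0.0750). DESeq2, run as an alternative, called these 3 genes in addition to Gabbr1 and Gabra2. Scaled by the neuron markers, edgeR gave log2 fold changes of 0.11 for Gabrg1 (adjusted p = 0.197), 0.11 for Gria1 (adjusted p = 0.311) and 0.02 for Gria4 (adjusted p = 0.784).

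Among leading genes of the other subfamilies, the log2 fold changes were small and none passed the test. Glrb had 30, 31.4 and 31.8 FPKM in Sham and 30.03, 33.1 and 36.9 in Fracture, and its log2 fold change was 0.10 (SE 0.040, adjusted p = 0.192). In 5 of 6 Fracture libraries Glrb was above the highest Sham library, and the same held for Gabbr1, Gabbr2, Grik1 and Grik4. The share of all genes with 5 of 6 libraries above was not counted. Grik1 had 32.2, 34.6 and 37.3 FPKM against 33.9, 37.9 and 41.2 (log2 fold change 0.13, SE 0.049, adjusted p = 0.163). Grin1 had 10.5, 10.7 and 11.6 FPKM against 10.8, 11.7 and 12.8 (log2 fold change 0.12, SE 0.043, adjusted p = 0.152). The groups overlapped in each of these genes. With libraries scaled by the neuron markers, the log2 fold change was −0.01 for Glrb, 0.03 for Grik1 and 0.01 for Grin1.

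Grid1 had 1.85, 2.23 and 2.67 FPKM in Sham and 2.22, 2.62 and 2.77 in Fracture (log2 fold change 0.15, SE 0.088, adjusted p = 0.383). Grm7 had 7.00, 7.90 and 8.61 FPKM against 7.84, 8.25 and 8.72 (log2 fold change 0.08, SE 0.043, adjusted p = 0.327), and −0.03 was its value under the neuron scaling. The leading genes of the rare subfamilies were measured far less closely. Medians in Sham and Fracture were 0.25 and 0.12 FPKM for Gabrd, 0.10 and 0.105 for Gabrr2, 0.095 and 0.115 for Grm5, and 0.13 and 0.165 for Grm3. Their log2 fold changes were −0.27 (SE 0.36, adjusted p = 0.763), 0.15 (SE 0.72, adjusted p = 0.941), 0.38 (SE 0.29, adjusted p = 0.536) and 0.29 (SE 0.27, adjusted p = 0.631), in the same order, each with an SE near or above its size. The sign for Gabrr2 turned when any of 4 libraries was left out.

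Across the 38 expressed genes, 32 had a log2 fold change above 0, against 50.7% of all genes tested, and their median was 0.10 against 0.00 for all genes. For the 25 genes at a mean of 1 FPKM or more, 22 were above 0, with a median of 0.12, a range of −0.01 to 0.27 and SEs between 0.028 and 0.12. All 5 kainate subunits and both GABA-B subunits were above 0, and among the alpha subunits of the GABA-A receptor 3 of 5. These signs depend on the scaling: relative to the neuron markers, a scaling chosen after seeing the data, 18 of 38 genes were above 0 and none was called by edgeR, against 0.179% of all genes called higher and 11.8% called lower. That scaling moved the median of all genes to −0.11, and the median of the receptor genes lay 0.0993 above it, against 0.0995 in the main test. Fewer cells of a type and less RNA per cell cannot be told apart in bulk tissue.

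**Figure D3:**
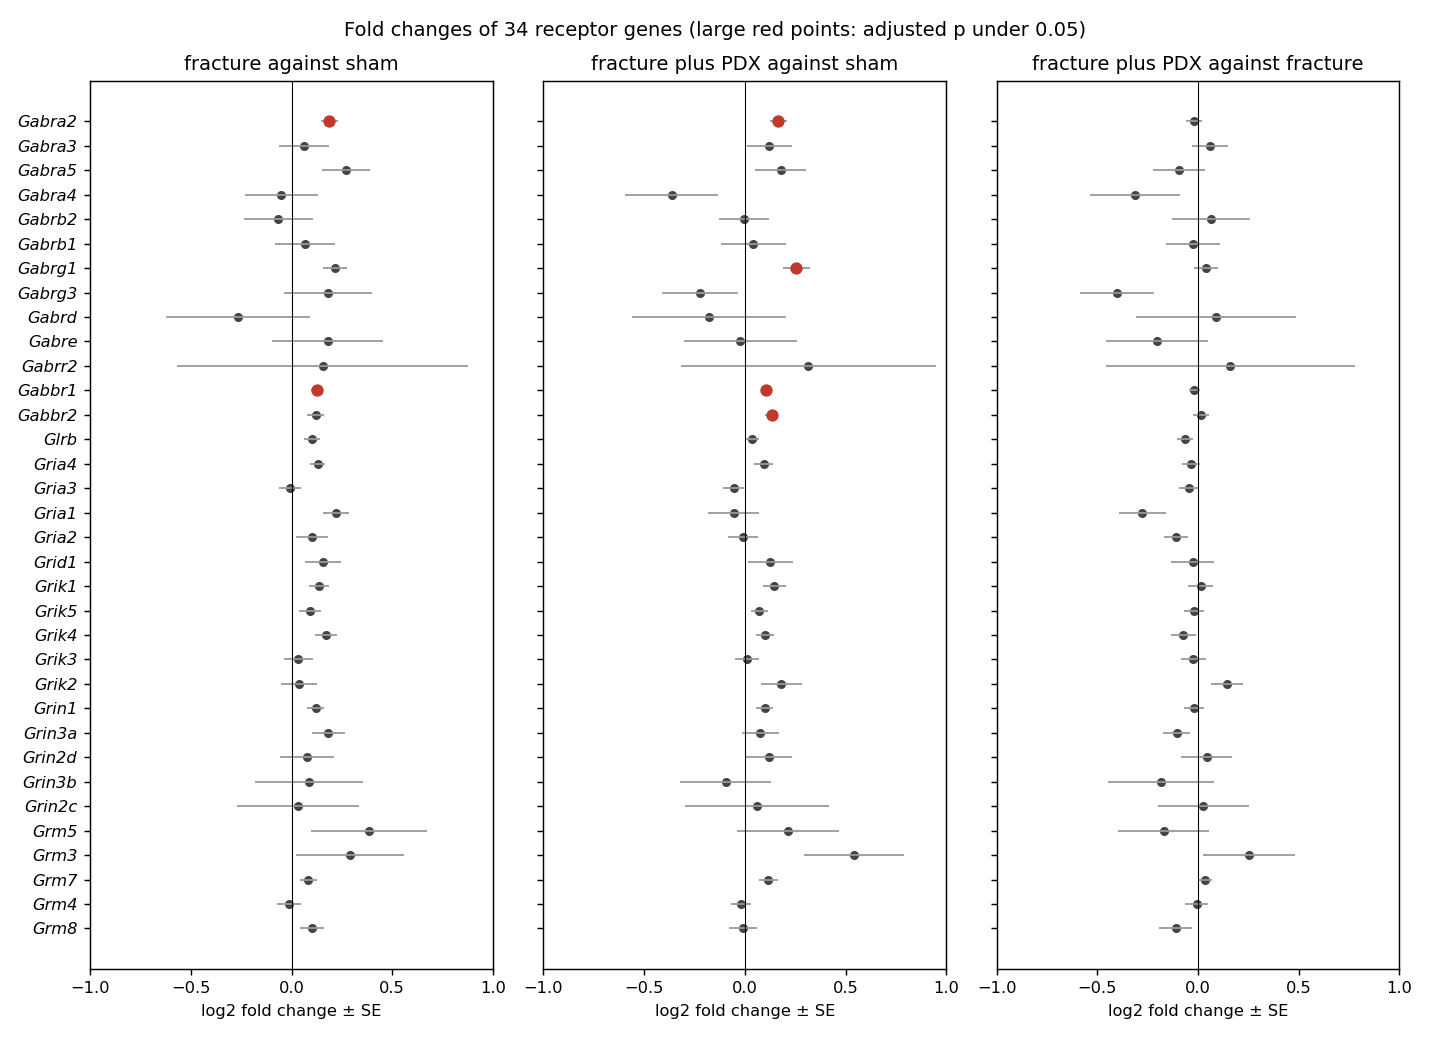
Log2 fold change ± SE (horizontal axis) of 34 of the 38 expressed receptor genes in the 3 comparisons of groups, by edgeR with sex as a covariate, with large red points for an adjusted p under 0.05. Most points lie to the right of 0 in Fracture against Sham (29 of 34) and in Fracture+PDX against Sham (23 of 34), and 12 of 34 do in Fracture+PDX against Fracture. Scaled by the neuron markers, the counts over all 38 genes are 18, 16 and 14. That scaling shifts all genes tested, whose medians then lie at −0.11, −0.10 and 0.0073 in the same order.

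The neuron markers moved along with the receptor genes. The median log2 deviation of the 38 receptor genes from their mean over the 18 libraries averaged −0.050 in Sham, 0.053 in Fracture and 0.017 in Fracture+PDX, and that of the 15 neuron markers −0.079, 0.045 and 0.030. Scaled by the neuron markers, the log2 fold change of Gabbr1 was 0.02 (adjusted p = 0.738) and that of Gabra2 0.08 (adjusted p = 0.241). The part of neuron content in the difference between the groups was not tested.

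**Figure D4:**
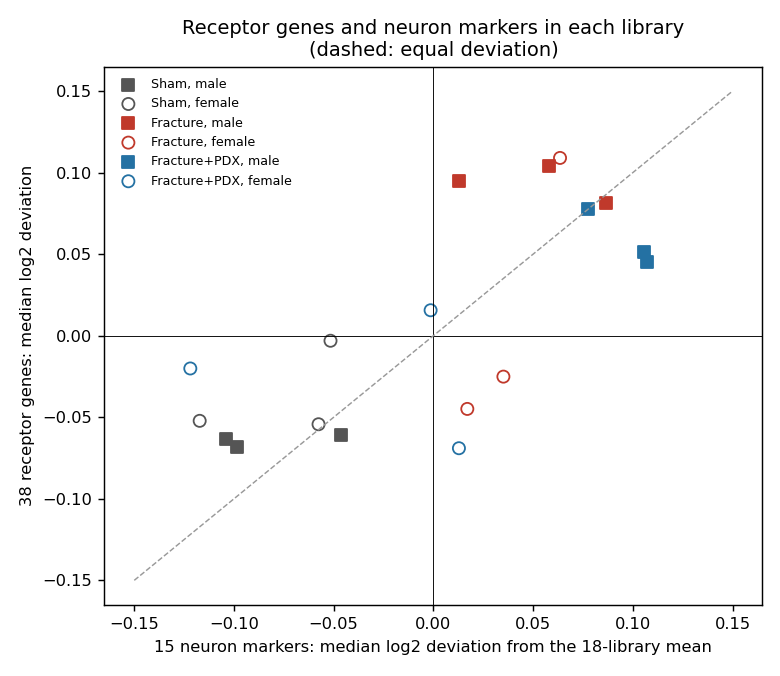
Median log2 deviation of the 38 expressed receptor genes (vertical axis) against that of 15 neuron markers (horizontal axis), each from its mean over the 18 libraries, 1 point per library by group and sex, with a dashed line of equal deviation. All 6 Sham libraries lie below 0 on both axes, and all 6 Fracture libraries lie above 0 for the neuron markers, 4 of them also for the receptor genes.

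In Fracture+PDX against Fracture, no receptor gene passed the test, and neither did any other gene. EdgeR called 0 of 20562 genes (0.0% higher, 0.0% lower) and 0 of 44 receptor genes, and DESeq2 called 15 genes, none of them a receptor gene. At an unadjusted p under 0.05, 2.86% of all genes were higher and 2.55% lower, against 0 and 3 of the 44 receptor genes. No receptor gene had FPKM ranges apart between the groups, against 0.0827% of all genes in the higher and 0.122% in the lower direction. Among the 5 genes with the smallest p were Gria1, Gabrg3, Grik2 and Gria2. Gria1 lay at 2.36, 2.42 and 2.57 FPKM in Fracture and at 1.24, 2.22 and 2.46 in Fracture+PDX, with 5 of 6 treated libraries below every Fracture library (log2 fold change −0.28, SE 0.12, adjusted p = 0.901). Without Fracture+PDX male 2 the log2 fold change was −0.17. The 3 treated males, at 1.24, 1.66 and 2.17 FPKM, were the lowest of the treated mice, as the plot of FPKM by library and sex shows. Gabrg3, a low gene, ran from 0.08 to 0.16 FPKM in Fracture and from 0.08 to 0.10 in Fracture+PDX (log2 fold change −0.40, SE 0.18, adjusted p = 0.912). Grik2 had 0.95, 1.17 and 1.28 FPKM in Fracture and 1.12, 1.18 and 1.57 in Fracture+PDX, and Gria2 1.55, 1.76 and 2.15 against 1.43, 1.71 and 1.84. Their log2 fold changes were 0.14 (SE 0.080) and −0.11 (SE 0.060), each with an adjusted p of 0.917 and with overlapping groups, and that of Grik2 was 0.08 without Fracture+PDX male 2, the library at 1.57 FPKM.

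For the abundant receptors the difference was bounded closely. The 95% normal interval of the log2 fold change from PDX ran from −0.07 to 0.04 for Gabbr1, from −0.07 to 0.09 for Gabbr2, from −0.14 to 0.02 for Glrb and from −0.10 to 0.06 for Gabra2. For Grik1 it ran from −0.11 to 0.13, for Gria4 from −0.12 to 0.05 and for Grin1 from −0.12 to 0.08. Grm7 had an interval of −0.03 to 0.10. Over the 25 genes at 1 FPKM or more the SEs ran from 0.028 to 0.13. A change of 1 SE is too small to be called. Even Gria1, at −0.28 with an SE of 0.12, had an adjusted p of 0.901 by edgeR. Among the rarer subunits Gabrd had an interval of −0.69 to 0.87 and Grm3 of −0.20 to 0.70. The median of the 38 expressed genes was −0.02, and 13 of 38 were above 0, against 50.0% of all genes.

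In Fracture+PDX against Sham, levels of 4 receptor genes were higher in the treated fracture mice: Gabbr2, Gabrg1, Gabbr1 and Gabra2. None was lower, and over all 20574 genes 2.17% were called higher and 2.32% lower, against 4 and 0 of 44 receptor genes. Because the comparison uses the same Sham libraries as Fracture against Sham, the values are given side by side and the overlap is not read as support. Gabbr2 lay at 25.7, 26.5 and 26.9 FPKM in Sham, at 26.5, 28.4 and 30.2 in Fracture and at 26.1, 28.8 and 30.3 in Fracture+PDX. In each fracture group 5 of 6 libraries were above every Sham library, and the log2 fold change from Sham was 0.12 in Fracture (SE 0.041, adjusted p = 0.136) and 0.13 in Fracture+PDX (SE 0.031, 9.65%, adjusted p = 0.0284). Gabrg1 lay at 3.49, 4.04 and 4.78 FPKM in Fracture+PDX, with 3 of 6 libraries above every Sham library (log2 fold change 0.26, SE 0.065, 19.4%, adjusted p = 0.0418). Gabbr1 lay at 48.6, 50.8 and 53.5 FPKM, with 5 of 6 above every Sham library (log2 fold change 0.11, SE 0.028, 7.68%, adjusted p = 0.0441). Gabra2 lay at 8.51, 9.66 and 10.7 FPKM, with 4 of 6 above (log2 fold change 0.17, SE 0.043, 12.3%, adjusted p = 0.0455). Of the chromosome 5 cluster, Gabra4 and Gabrb1 had log2 fold changes of −0.36 (SE 0.23) and 0.04 (SE 0.16).

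**Figure D5:**
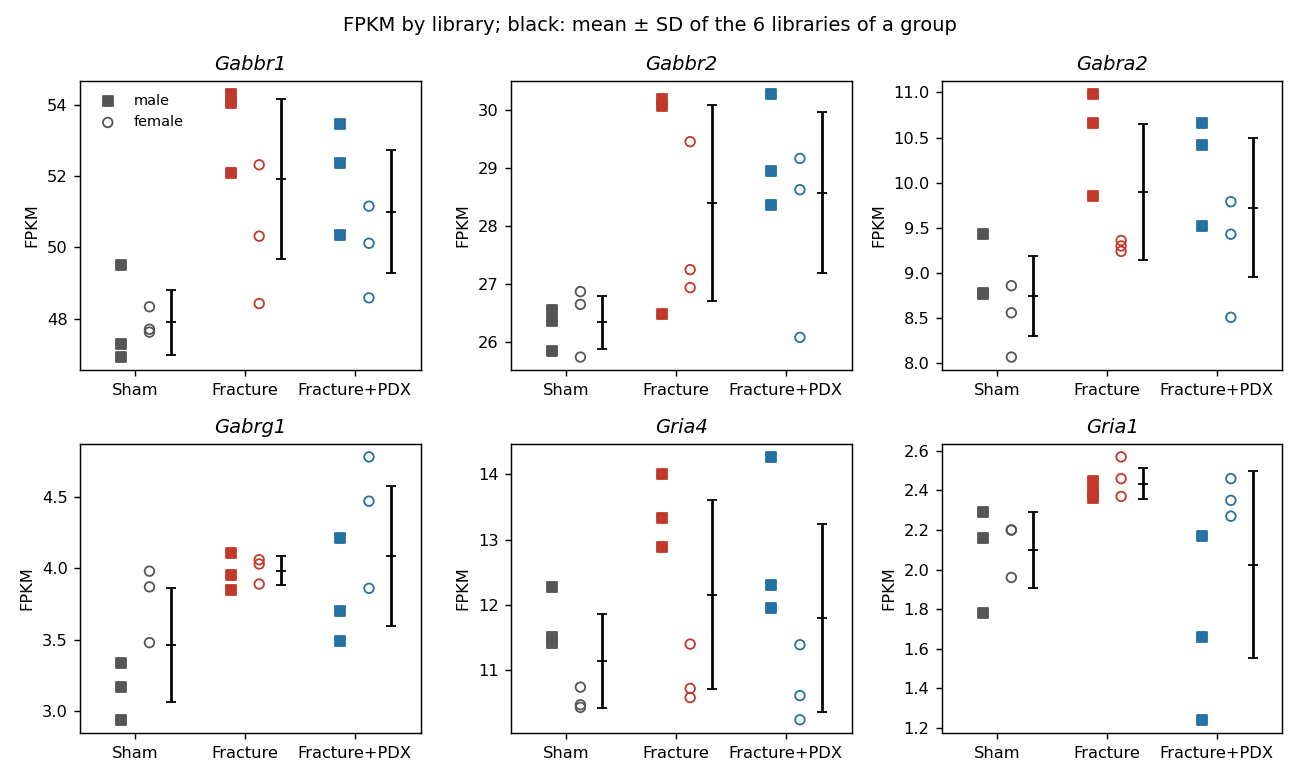
FPKM (vertical axis, not starting at 0) of Gabbr1, Gabbr2, Gabra2, Gabrg1, Gria4 and Gria1 in each library by group, filled squares for males and open circles for females, with the mean ± SD of the 6 libraries of a group in black. Fracture libraries of Gria1 all lie above the Sham libraries, and males lie above females for Gria4 in each group.

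These calls, too, rest on individual libraries. The count was 0 without Sham male 2, Sham male 3, Sham female 2, Fracture+PDX male 3 or Fracture+PDX female 1. It was also 0 with limma on log2(FPKM + 0.1) or log2(FPKM + 1) and when scaled by the neuron markers, where the log2 fold changes were 0.03 for Gabbr2, 0.16 for Gabrg1, 0.01 for Gabbr1 and 0.07 for Gabra2. Of the 38 expressed genes, 25 were above 0 in the main test, against 49.6% of all genes, with a median of 0.09, and 16 were above 0 under the neuron scaling. That scaling moved the median of all genes to −0.10. The median of the receptor genes lay 0.0857 above it, against 0.0869 in the main test. Of the 44 receptor genes tested none lay wholly above or below the Sham libraries, against 1.05% and 1.48% of all genes.

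Gria4 was lower in females than in males and was the only receptor gene called between the sexes. Over the 18 mice, 0.117% of 20527 genes were called higher and 0.18% lower in females, against 0 and 1 of 44 receptor genes. Gria4 lay at 11.4, 12.3 and 14.3 FPKM in the 9 males (lowest, median and highest) and at 10.2, 10.6 and 11.4 FPKM in the 9 females, and the ranges did not overlap, as was so for 0.0438% of all genes in this direction. They nearly touched: the lowest male, Sham male 2, was at 11.42 FPKM and the highest female, Fracture female 1, at 11.40 FPKM. In none of the 44 receptor genes did all females lie above all males, against 0.0536% of all genes. The log2 fold change was −0.25 with an SE of 0.036, or −16.0% (adjusted p = 0.00151). The direction was the same within each group: means were 11.7 ± 0.473 FPKM in males and 10.5 ± 0.169 in females in Sham, 13.4 ± 0.564 and 10.9 ± 0.439 in Fracture, and 12.8 ± 1.25 and 10.7 ± 0.587 in Fracture+PDX (SD, n = 3). It was called in 18 of 18 repeats that left out a library, with a log2 fold change between −0.26 and −0.23 and an adjusted p between 0.00111 and 0.00578. Scaled by the neuron markers it was −0.22 (adjusted p = 0.0159).

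No other receptor gene passed the threshold between the sexes. Gabra2 had the next smallest p, with a log2 fold change of −0.15 (SE 0.034, adjusted p = 0.0677) and 0 of 9 females above the median male. Gabrg1 went the other way, at 0.14 (SE 0.051, adjusted p = 0.302), and 8 of 9 females were above the median male. Of the 38 expressed genes 14 were above 0, against 50.5% of all genes, with a median of −0.05. Whether the response differed between the sexes was tested as an interaction. For fracture against sham, 0 of 22047 genes and 0 receptor genes were called by edgeR, and the smallest adjusted p of a receptor gene was 0.626. Of the 38 expressed genes, 7 had an interaction term above 0, against 49.2% of all genes, with a median of −0.09. For fracture plus PDX against fracture, 1 of 21878 genes was called (0.00457%), and no receptor gene.

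Genes that make, carry, anchor and assist these receptors were counted from 11 lists holding 86 genes, of which 82 were tested. After fracture 3 rose and 3 fell, against 1.09% and 1.83% of all genes. Those that rose were Slc1a4, a transporter of neutral amino acids including D-serine (17.4 FPKM median in Sham, 19.7 in Fracture; log2 fold change 0.20, adjusted p = 0.0165), Lhfpl4, which holds GABA-A receptors at inhibitory synapses (54.1 and 58.4 FPKM; 0.13, adjusted p = 0.0282), and Gabarapl1, an autophagy protein related to the GABA-A receptor–associated protein (297 and 316 FPKM; 0.11, adjusted p = 0.0319). Those that fell were the scaffold Dlg1 (2.46 and 1.93 FPKM; log2 fold change −0.32, adjusted p = 0.0200), the GABA-B auxiliary subunit Kctd12 (3.95 and 3.20 FPKM; −0.32, adjusted p = 0.0280) and Shisa8, from the AMPA auxiliary family (0.37 and 0.20 FPKM; −0.85, adjusted p = 0.0473). Scaled by the neuron markers, Dlg1, Kctd12 and Shisa8 were still called, Slc1a4 (log2 fold change 0.09), Lhfpl4 (0.02) and Gabarapl1 (0.0047) were not, and 12 of the 82 genes were called in all, every one lower, beside 11.8% of all genes called lower under that scaling. In 12 fits that each left out a library, the calls of Slc1a4 and Dlg1 held in all 12, while that of Kctd12 was lost in 3, of Lhfpl4 in 6, of Gabarapl1 in 9 and of Shisa8 in 11.

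In the list of anchoring and assembly genes 10 of 11 had a log2 fold change above 0, against 50.7% of all genes, and 2 were called higher, against 1.09%. None of the 5 tested genes for GABA and glycine uptake was above 0, against the same 50.7%, with a median of −0.34 and none called. Among these, Slc6a12, a betaine and GABA transporter, lay at 0.72, 1.42 and 1.86 FPKM in Sham, 0.39, 0.60 and 1.1 in Fracture and 0.48, 0.66 and 0.88 in Fracture+PDX. It was called in Fracture+PDX against Sham (log2 fold change −1.0, SE 0.21, adjusted p = 0.0195) and not in Fracture against Sham (−0.93, SE 0.27, adjusted p = 0.0867).

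Between Fracture+PDX and Fracture 0 pathway genes were called by edgeR. Against Sham, 6 of 82 were higher and 3 lower with PDX, against 2.17% and 2.32% of all genes. Besides Slc1a4 (log2 fold change 0.24, adjusted p = 0.00339), Lhfpl4 (0.18, adjusted p = 0.0189), Gabarapl1 (0.13, adjusted p = 0.0254) and Dlg1 (−0.28, adjusted p = 0.0256), these included Got2, a mitochondrial aminotransferase that makes and uses glutamate (56.4 FPKM median in Sham, 59.8 in Fracture, 61.4 in Fracture+PDX; 0.14, adjusted p = 0.00924). Nlgn2, the adhesion protein of inhibitory synapses, had medians of 20.7, 21.6 and 22.5 FPKM (0.17, adjusted p = 0.0190), and Slc17a7, a vesicular glutamate transporter, 43.7, 50.4 and 51.0 FPKM (0.22, adjusted p = 0.0480). The scaffold Dlg3 had 2.67, 2.33 and 2.21 FPKM (−0.29, adjusted p = 0.0175). None of the 6 higher genes was called when scaled by the neuron markers, where the log2 fold change was 0.14 for Slc1a4, 0.12 for Slc17a7, 0.08 for Lhfpl4, 0.07 for Nlgn2, 0.04 for Got2 and 0.02 for Gabarapl1, and the 3 lower genes were still called. That scaling moved the median of all genes to −0.10 in this comparison. The share of all genes called lower under it was counted only for Fracture against Sham, where it was 11.8%. With a library left out, the call of Slc17a7 was lost in 10 of 12 fits, of Dlg1 in 7, of Gabarapl1 in 6, of Slc6a12 in 2 and of Lhfpl4 in 1, and those of Slc1a4, Got2, Nlgn2 and Dlg3 in none.

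Of the genes that were the most abundant of their list and are not named above, those given here showed no called change. Abat, which breaks down GABA, had medians of 9.47, 9.71 and 9.61 FPKM in Sham, Fracture and Fracture+PDX, and Glul, the glutamine synthetase of glia, 95.6, 87.0 and 88.4. Stk39, a kinase that activates chloride uptake, had 39.9, 41.3 and 42.3, and Kctd8, the highest GABA-B auxiliary subunit, 13.6, 14.3 and 14.8. Slc1a6, a glutamate transporter, had 3.05, 3.04 and 3.00 FPKM. Cacng7, an AMPA auxiliary subunit, had 34.3, 36.1 and 34.5, Neto2 of the kainate receptor 3.22, 3.49 and 3.46, and the scaffold Dlgap3 12.1, 13.0 and 13.4 FPKM.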

How the data were processed

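Poly(A) RNA of L3–L5 DRG was sequenced from 18 CD1 mice, 6 each in Sham, Fracture and Fracture+PDX with 3 per sex. The authors deposited raw read counts per gene for 36737 genes, with no normalization, and FPKM for each of these values, scaled by transcript length and by library size. Per the labels, reads were trimmed with cutadapt (version 1.10), checked with FastQC, and processed with HISAT2 and StringTie on mm10; the counting program and its strand setting are not given in the sources used here. Deposited FPKM equalled CPM per kilobase of the exon union divided by 1.106 (13312 genes), so a gene with a long untranslated part has a lower FPKM. Neither kind of value used molecular identifiers.

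Counts were tested with the edgeR quasi-likelihood test (edgeR 4.0.16, limma 3.58.1, R 4.3.3) after filterByExpr (minimum count 10, minimum total 15) and TMM scaling, robustly fitted, with sex as a covariate. Each comparison of groups used its own 12 libraries, and sex was tested over all 18 with group as a covariate. P-values were adjusted by Benjamini-Hochberg over all genes tested, called under 0.05, and are two-sided. Scripts were tested on simulated data first. P-values measure the spread between mice. Levels and subunit shares are from the deposited FPKM. Receptor genes were named with values when they led a subfamily, were called in any comparison, or had 1 of the 5 smallest p in Fracture against Sham or Fracture+PDX against Fracture; pathway genes when called or leading a list. Values of a few single genes that enter the counts, medians and tests are not reported here. The receptor genes, lists and tests were chosen with earlier results of these data known. Replicates differed by a chi-square per gene of 23.67 to 62.05, far above sampling noise, so each library counts as 1 sample. Alternatives were DESeq2 1.42.0, limma on log2(FPKM + 0.1) and log2(FPKM + 1), other filters and scalings, a fit without sex, a replicate block, and leaving out each library. GENCODE M21 places 39 of the 51 receptor genes at the deposited coordinates. Promoters come from RefSeq.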

Additional observations from a re-analysis of the deposited data

Results flagged for a closer look

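In 1 of 54 groups, formed by 18 named receptor genes in 3 groups of 6 libraries, 1 library stood far from the rest by Dixon's criterion; chance gives such a library in about 1 of 20 groups. Grik2 was at 1.57 FPKM in Fracture+PDX male 2, with the nearest library of that group at 1.25 FPKM.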

How the results depend on the processing

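Receptor genes called in Fracture against Sham, 2 in the report, numbered 5 with DESeq2, 1 with limma on log2(FPKM + 0.1), 1 on log2(FPKM + 1), 1 without the sex covariate, 0 scaled by the neuron markers and 0 to 4 with a library left out. In Fracture+PDX against Sham, 4 in the report, they numbered 2 with no filter on low counts, 0 with limma on log2(FPKM + 0.1), 0 on log2(FPKM + 1), 1 without the sex covariate, 0 scaled by the neuron markers and 0 to 4 with a library left out. Pathway genes called in Fracture against Sham, 6 in the report, numbered 11 with DESeq2, 12 scaled by the neuron markers and 2 to 8 with a library left out, and in Fracture+PDX against Sham, 9 in the report, 14, 5 and 5 to 10. Between the sexes DESeq2 called 2 receptor genes, Gria4 and Gabra2, and 1 to 2 were called with a library left out. No receptor gene was called in Fracture+PDX against Fracture or in either interaction under any alternative. Among the log2 fold changes recomputed, those of called genes, of the 5 receptor genes with the smallest p in Fracture against Sham and in Fracture+PDX against Fracture, and of the leading genes in Fracture against Sham, 3 genes changed sign. Glrb was at −0.0084 and Grm7 at −0.027 when scaled by the neuron markers, and Gabrr2 ran from −0.10 to 0.60 with a library left out. The cause of the lost calls was not tested. The neuron scaling and the coding length were chosen after seeing the data.

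With a replicate block, mice of the same sex and number, the counts were 0 receptor and 0 pathway genes in Fracture against Sham, and 1 (Gabrg1) and 4 in Fracture+PDX against Sham. Deviations of same-numbered mice correlated by −0.0705 to 0.126, and the highest correlation was with the own number in 19 of 36 choices among 3. Random picking among 3 would give the own number in about 1 of 3 choices. Whether the numbers pair the mice cannot be decided from these values, since the choices share libraries. The labels name no pairing, and the main test used none.

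Depth limits the 13 genes under 1 FPKM among the expressed, where SEs in Fracture against Sham ran from 0.072 to 0.72 on the log2 scale.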

Other observations

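Among the 25 receptor genes at a mean of 1 FPKM or more, the spread over the 18 libraries differed between genes of similar function. The coefficient of variation was 4.76% for Gabbr1, 5.76% for Gabbr2, 5.91% for Glrb and 6.23% for Grin1. It was 15.7% for Gabra3, 15.3% for Gria1 and 16.6% for Gabra5, and 14.0% for Grid1. These values pool the 3 groups and both sexes, and for Gria4, at 10.7%, they include the difference between the sexes.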
